A study of Canis lupus familiaris with 7 samples.

Results

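Cadherins and protocadherins are calcium-dependent adhesion proteins of the cell surface, and their messenger RNA was followed here gene by gene in 7 canine primary osteosarcomas, a bone-forming tumour of dogs. Members were the array probes whose gene name began with CDH and a digit, with PCDH, or with FAT and a digit, leaving out CDH5, the endothelial cadherin. The rule found 58 probes of 43603 and 47 genes of 13062 with a symbol. Of these genes, 21 were clustered protocadherins of the PCDHA, PCDHB and PCDHG families and 26 were other members. RNA of each tumour was labelled with Cy3 and hybridised to an Agilent canine array with 1 colour, so that each tumour gave 1 array. The question of the design was how tumours that had lost DLG2, a membrane scaffold gene, differed from tumours that had kept it. The 4 DLG2-deleted tumours came from a mixed German Shepherd/Collie cross aged 8 years (deleted 1), a Rottweiler cross aged 9 years (deleted 2), a Greyhound aged 6 years (deleted 3) and a Great Pyrenees aged 7 years (deleted 4). The 3 DLG2-wild-type tumours came from a Boxer aged 12 years (wild-type 1), a Labrador Retriever cross aged 10 years (wild-type 2) and a Bull Mastiff aged 8 years (wild-type 3). The sex label was MC for deleted 1, deleted 3 and wild-type 3 and FS for the other tumours. No treatment is labelled, and the dogs differed in breed and age as well as in DLG2 status.

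Classical cadherins bind the same kind of cadherin on a neighbouring cell and hold on to the actin skeleton through catenins. Type I members include E-cadherin of epithelia and N-cadherin of mesenchymal and neural cells, and type II members include CDH11, known as osteoblast cadherin. Clustered protocadherins lie in 3 gene arrays side by side. Each first exon has a promoter of its own, and single neurons switch on different sets of them, which gives cells a surface identity. In the alpha and gamma arrays each first exon is spliced to constant exons at the downstream end of the array, whereas the beta genes have no such constant exons. FAT proteins are very large cadherins with a place in planar polarity and in the Hippo growth pathway.

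The 24 clustered probes with a position lay on chromosome 2 of the canFam2 assembly within 554.5 kb, from 38762496 to 39317040. PCDHA probes covered 184.2 kb, PCDHB probes 94.3 kb and PCDHG probes 157.0 kb, in that order. Because the families arose by duplication, the probes of the genes that carry the results are printed with their longest stretch shared with the probe of another member gene in capitals. All are 60 bases long, on the plus strand, written 5′ to 3′.
PCDHAC2 (chr2:38944208-38944267): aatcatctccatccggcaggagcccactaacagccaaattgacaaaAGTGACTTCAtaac
PCDHB2 (chr2:39010509-39010568): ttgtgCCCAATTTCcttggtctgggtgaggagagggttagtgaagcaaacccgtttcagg
PCDHB14 (chr2:39081449-39081508): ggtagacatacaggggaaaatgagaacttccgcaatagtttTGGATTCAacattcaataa
PCDHB15 (chr2:39103462-39104769): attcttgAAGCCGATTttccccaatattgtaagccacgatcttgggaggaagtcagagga
PCDHGA1 (chr2:39160016-39160075): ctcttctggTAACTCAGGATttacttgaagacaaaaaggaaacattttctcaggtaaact
PCDHGA3 (chr2:39173867-39174179): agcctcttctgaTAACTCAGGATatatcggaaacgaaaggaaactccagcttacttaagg
The PCDHGA1 and PCDHGA3 probes shared a run of 11 bases and aligned over 20 bases with 19 identical. Counted as runs without a mismatch, the PCDHB14 probe shared no more than 8 bases with any other member's probe. PCDHB2 shared 9 bases with PCDHB6, PCDHB15 9 bases with PCDHB16 and PCDHAC2 10 bases with a PCDHGC3 probe. The PCDHB15 and PCDHB16 probes match again beyond the mismatched base that ends their run. Matches of a probe to transcripts that have no probe here were not examined, so signal from a close copy of a PCDHB or PCDHG gene cannot be separated from the named gene. The PCDHB15 and PCDHGA3 positions are wider than the probe because the file maps the probe in pieces. The PCDHB16 probe is described in the file as protocadherin beta 7, so its gene name is uncertain. Whether a probe lies in a coding or untranslated exon was not analysed here.

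Values are log2 intensities after background correction and quantile normalization, on a scale whose lower end lies near 6.4, so that differences of dim genes are compressed. Probes well above background on fewer than 3 of the 7 arrays were set aside, and each gene was read from its kept probe with the highest mean. This left 37 of the 47 member genes, 17 clustered and 20 other. Levels of different probes are not comparable with each other, so only tumours are compared. DLG2 itself had 1 probe, at 10.38, 11.44, 10.51 and 10.84 in deleted 1 to 4 and 10.91, 12.03 and 11.75 in wild-type 1 to 3, a difference of -0.77 (SE 0.35, limma adjusted p = 0.711), and the place of this probe relative to the deleted stretch was not analysed here. The arrays of wild-type 1 and wild-type 2 correlated at r = 0.987 over the kept probes, against 0.935 to 0.966 in the other 20 pairs of tumours, although the labels give different dogs. Deleted 2, deleted 3 and wild-type 2 shared a slide. The files give an image-analysis time for each array but name no session. What is called a session here is a split of the hour at noon, without regard to the date. The first session, before noon, held deleted 2, 3, 4 and wild-type 2. Tissue markers also differed among the tumours. Cartilage markers stood highest in deleted 2 (a median of 2.53 above each gene's mean over the tumours), adipocyte markers in deleted 4 (3.12), endothelial markers in deleted 3 (1.34) and osteoclast and osteoblast markers in wild-type 3 (2.64 and 1.07). Some list medians also differed with DLG2 status. Fibroblast markers (4 of 4 kept) lay at 0.16 to 0.45 in the deleted and -0.65 to 0.09 in the wild-type tumours. Schwann and nerve markers (3 of 6 kept) lay at -0.36 to -0.01 against 0.08 to 0.25. In the other marker lists the groups overlapped. The part of these markers in the member levels was not tested. In bulk tumour RNA, fewer cells of a type cannot be told apart from less RNA per cell.

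No member differed between DLG2-deleted and DLG2-wild-type tumours at the threshold of the study (unadjusted p below 0.05 and adjusted p below 0.1), with limma or with the methods' t-test. The share of all 11112 genes called by limma was also 0%. At unadjusted limma p below 0.05, PCDHB14 and FAT4 were lower in deleted tumours and PCDH8 and PCDH19 were higher. That is 4 of 37 member genes or 10.8%, near the 7.6% of all genes (3.66% higher and 3.93% lower). The same 4 genes were the ones whose groups did not overlap, 10.8% against 7.71% of 11085 genes (4.19% higher and 3.52% lower). The methods' t-test gave an unadjusted p below 0.05 in 3 member genes and in 6.95% of all kept probes. The median difference, deleted minus wild type, was -0.05 over the 17 clustered genes and 0.03 over the 20 others, against 0.01 over all genes. A higher mean in the deleted tumours was found in 20 of the 37 members and in 5864 of all 11085 genes. The median size of the difference regardless of sign was 0.30 over the clustered genes, 0.12 over the others and 0.16 over all genes. With 4 against 3 tumours, the smallest p of the exact two-sided permutation test is 0.0571.

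**Figure D1:**
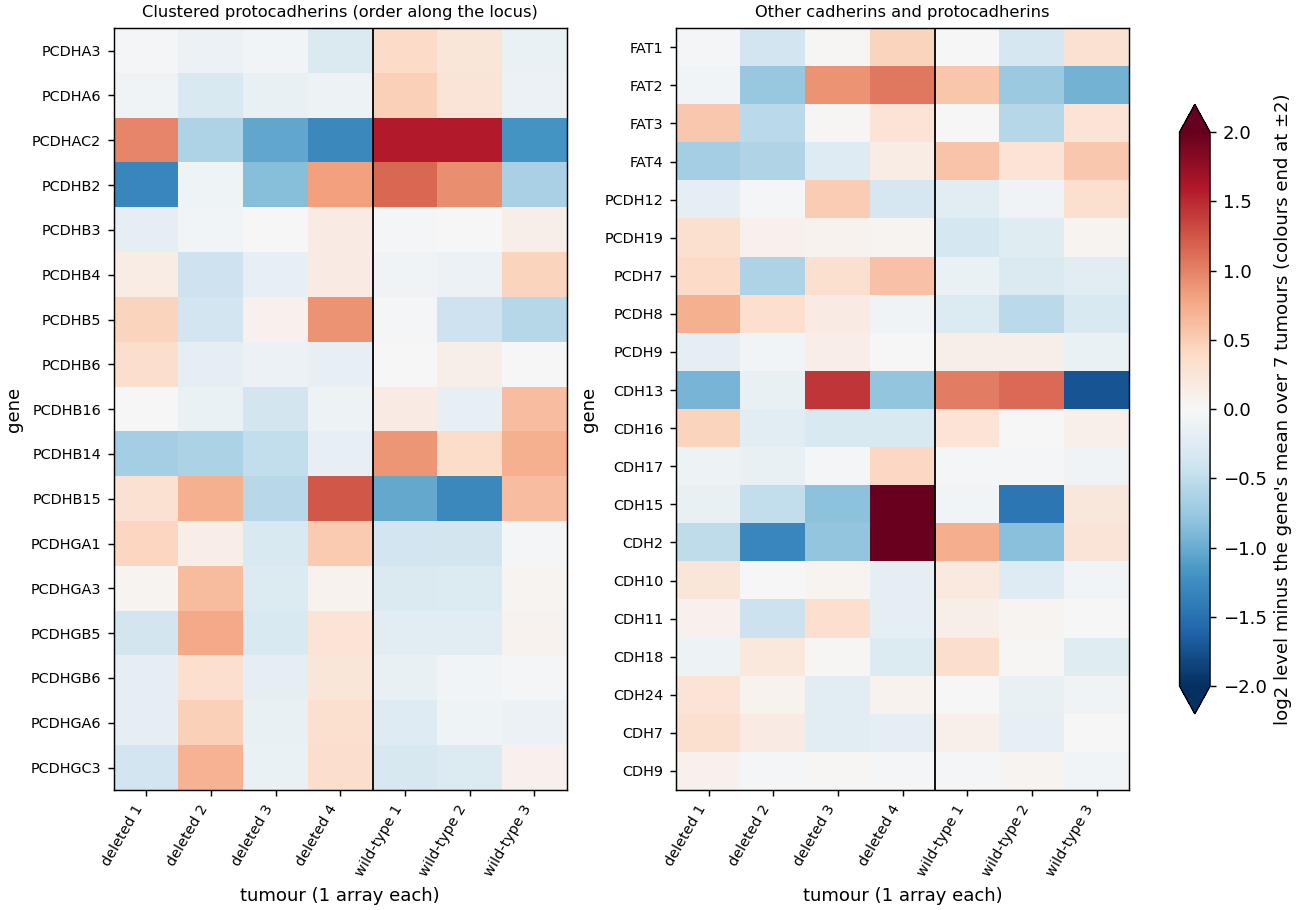
Log2 level of each kept member gene in each tumour minus that gene's mean over the 7 tumours, with clustered protocadherins in locus order on the left and the other members on the right. The vertical line separates the 4 deleted from the 3 wild-type tumours. PCDHAC2 stands out as high in deleted 1, wild-type 1 and wild-type 2, the PCDHG genes as high in deleted 2, and CDH2 and CDH15 as high in deleted 4.

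Of the 7 PCDHA genes, 3 had a kept probe, and all of these had a lower mean in the deleted tumours, with a median difference of -0.36. PCDHAC2, a C-type alpha protocadherin, was at 9.12, 7.54, 7.10 and 6.86 in deleted 1 to 4 and at 9.74, 9.73 and 6.95 in wild-type 1 to 3. Deleted 1, wild-type 1 and wild-type 2 were thus high and the other 4 tumours low, and the groups overlapped (difference -1.15, SE 0.84, limma adjusted p = 0.856). The SD over the tumours was 1.33, and 0.974% of all genes had a larger one. The other PCDHAC2 probes, further downstream, gave the same division. One read 7.61, 6.68, 6.50 and 6.60 in the deleted and 7.94, 7.83 and 6.62 in the wild-type tumours, and the other 7.09, 6.38, 6.37 and 6.40 against 7.81, 7.71 and 6.46. All 3 probes lie between 38944208 and 38946725, the end of the alpha array where the constant exons are. Whether they measured PCDHAC2 alone or alpha transcripts in general was not examined here. The levels given under the name PCDHAC2 may therefore be those of alpha transcripts in general. Without wild-type 3 the difference was -2.08 with the slide as a block -2.41 and with age as a covariate 0.26.

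PCDHA6, an alpha protocadherin from the upstream end of the array, was at 6.72, 6.50, 6.65 and 6.68 in the deleted tumours and at 7.27, 7.06 and 6.68 in the wild-type tumours. PCDHA3, further upstream with the PCDHA5 probe in between, was at 6.80, 6.71, 6.78 and 6.54 against 7.21, 7.07 and 6.69. In both genes wild-type 1 and 2 stood above all other tumours and wild-type 3 fell among the deleted ones. The differences were -0.36 (SE 0.15, limma adjusted p = 0.686) and -0.28 (SE 0.15, limma adjusted p = 0.760). Of the PCDHA genes without a kept probe, PCDHA13 was read at 6.61 in both wild-type 1 and wild-type 2 and no higher than 6.48 elsewhere, and PCDHA1 was highest in deleted 2 at 6.71. Probes of PCDHA5 and PCDHA12 were not well above background on any array. Since wild-type 1 and 2 were the pair of nearly equal arrays, the alpha pattern in the wild-type group rests on them, and counting the pair as 1 tumour left each of the 3 PCDHA differences below 0, at -0.69 for PCDHAC2, -0.28 for PCDHA6 and -0.21 for PCDHA3. The sign turned under other settings. With normexp scaled to the 75th percentile PCDHA3 was at 0.39 and PCDHA6 at 0.32, where the median of all probes moved to 0.32, and with age as a covariate PCDHAC2 was at 0.26.

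The 8 PCDHB genes all had a kept probe, with differences from -1.15 to 0.99, of which 6 were below 0 and 2 above. PCDHB14, a beta protocadherin, was at 6.79, 6.84, 6.97 and 7.30 in deleted 1 to 4 and at 8.36, 7.83 and 8.17 in wild-type 1 to 3. Every deleted tumour lay under every wild-type tumour, and the spread within each group was small (6.98 ± 0.23, SD, n = 4, against 8.12 ± 0.26, SD, n = 3). The difference of -1.15 (SE 0.18, 95% interval -1.57 to -0.72) corresponds to a ratio of 0.45. It had the smallest p of all members (unadjusted limma p = 0.000387, adjusted p = 0.381, exact permutation p = 0.0571). Within the first image-analysis session the difference was -0.80, within the second -1.47, and within the shared slide -0.93. Their sign was fixed in advance because the groups did not overlap. Each rests on 1 wild-type tumour (first session and slide) or 1 deleted tumour (second session). With the signal as processed by the scanner software it was -2.53 (limma adjusted p = 0.170), more than 1.5 times the size.

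PCDHB2 and PCDHB15, both beta protocadherins, stood in opposite order in the wild-type tumours. PCDHB2 was at 7.23, 8.43, 7.68 and 9.34 in the deleted and at 9.67, 9.45 and 7.88 in the wild-type tumours. PCDHB15 was at 9.92, 10.32, 9.06 and 10.86 in the deleted and at 8.59, 8.33 and 10.23 in the wild-type tumours. Wild-type 1 and 2 were the highest for PCDHB2 and the lowest for PCDHB15, whereas deleted 4 was high and deleted 3 rather low for both. The groups overlapped in each gene, with differences of -0.83 (SE 0.62, limma adjusted p = 0.860) and 0.99 (SE 0.58, limma adjusted p = 0.788). Without wild-type 3 they were -1.39 and 1.58.

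PCDHB5 was at 8.27, 7.44, 7.92 and 8.73 in the deleted tumours and at 7.78, 7.41 and 7.26 in the wild-type tumours, with deleted 4 highest (difference 0.60, SE 0.31, limma adjusted p = 0.754). PCDHB16 was at 9.75, 9.62, 9.38 and 9.64 against 9.92, 9.59 and 10.37, with wild-type 3 highest (difference -0.36, SE 0.20, limma adjusted p = 0.771). The remaining PCDHB3, PCDHB4 and PCDHB6 had differences between -0.15 and -0.05 and overlapping groups. Some neighbours along the beta array thus had differences of opposite sign, although 6 of the 8 beta genes lay below 0. PCDHB14 at 319.0 kb from the first mapped probe was lower in the deleted tumours. PCDHB15, its downstream neighbour at 341.0 kb, had the higher mean there, with overlapping groups.

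**Figure D2:**
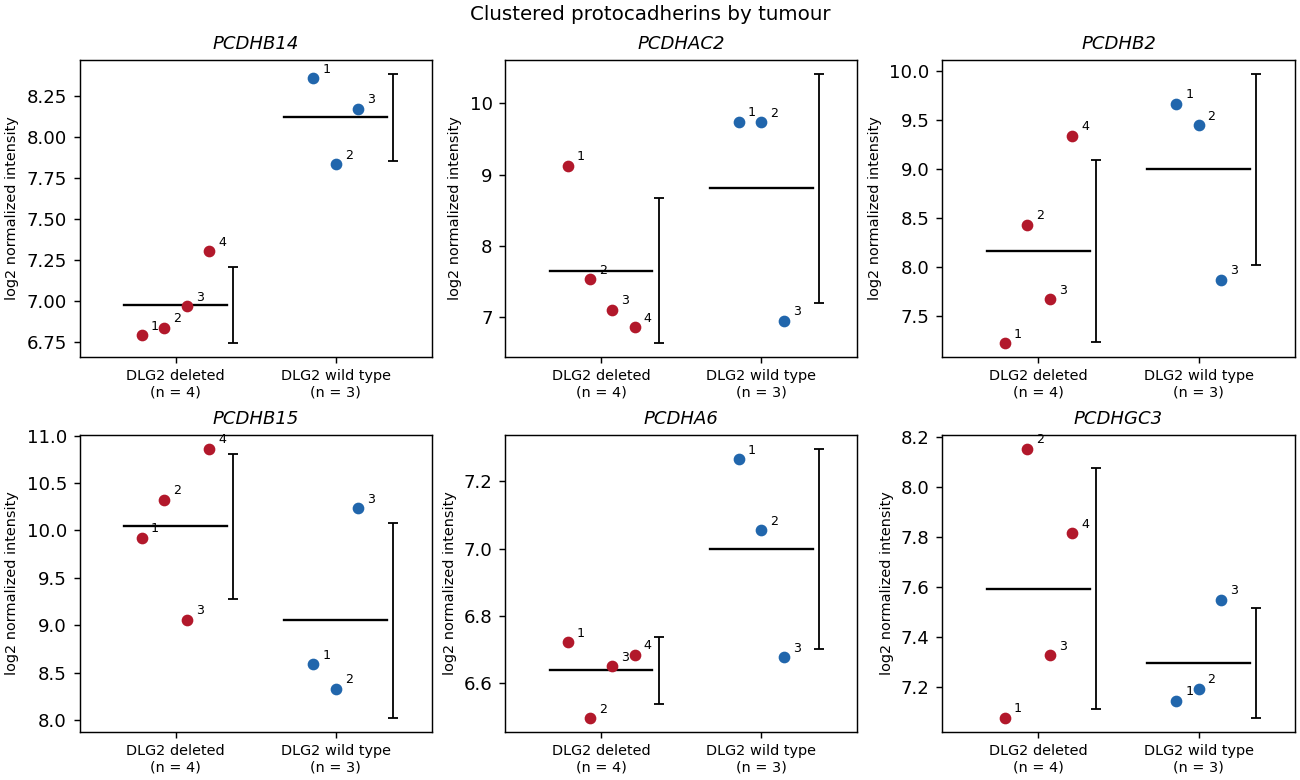
Log2 normalized intensity of 6 clustered protocadherins in the 4 deleted (red) and 3 wild-type (blue) tumours, where numbers name the tumour, lines the group mean and bars 1 SD either side of it. Only PCDHB14 has groups that do not overlap, 6.79 to 7.30 against 7.83 to 8.36, and wild-type 3 departs from wild-type 1 and 2 in each of the other 5.

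The 6 PCDHG genes all had a kept probe, and each had a higher mean in the deleted tumours, with differences from 0.12 to 0.45 and a median of 0.28. None reached an unadjusted limma p of 0.05 and the groups overlapped in all 6. PCDHGA1, of the gamma A subfamily, was at 7.59, 7.28, 6.85 and 7.67 in the deleted and at 6.77, 6.78 and 7.13 in the wild-type tumours (difference 0.45, SE 0.22, limma adjusted p = 0.732). PCDHGA6 was at 6.62, 7.30, 6.68 and 7.15 against 6.56, 6.74 and 6.70 (difference 0.27, SE 0.19, limma adjusted p = 0.845). PCDHGC3, a C-type gamma gene, was at 7.08, 8.16, 7.33 and 7.82 against 7.15, 7.20 and 7.55 (difference 0.30, SE 0.27, limma adjusted p = 0.897). Deleted 2 was the highest tumour in 5 of the 6 genes and deleted 4 in PCDHGA1. Relative to each gene's mean, the median over the family was 0.56 in deleted 2 and 0.30 in deleted 4, and between -0.28 and 0.02 in the other 5 tumours. In the family median, deleted 2 and deleted 4 thus lay above every wild-type tumour, and deleted 1 and 3 did not. Deleted 2 was also the tumour with the highest cartilage markers (5 of 5 kept, median deviation -0.56 to 2.53 in the deleted and -0.55 to -0.46 in the wild-type tumours), and the part of these markers in the PCDHG levels was not tested.

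A second PCDHGC3 probe, at 39314044 to 39314103 near the downstream end of the gamma array, behaved differently. It was at 7.37, 7.41, 7.19 and 7.22 in the deleted and at 7.03, 6.90 and 7.04 in the wild-type tumours. Here all deleted tumours lay above all wild-type tumours and deleted 2 did not stand apart (difference 0.31, SE 0.10, unadjusted limma p = 0.0172, adjusted p = 0.587, exact permutation p = 0.0571). Whether this second probe measured PCDHGC3 alone or other gamma transcripts as well was not examined here. The PCDHGB6 probe spans 39241182 to 39317040 in the file, from the gamma B exons to the downstream end, and followed the family pattern at 6.51, 7.03, 6.52 and 6.94 against 6.55, 6.65 and 6.68.

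**Figure D3:**
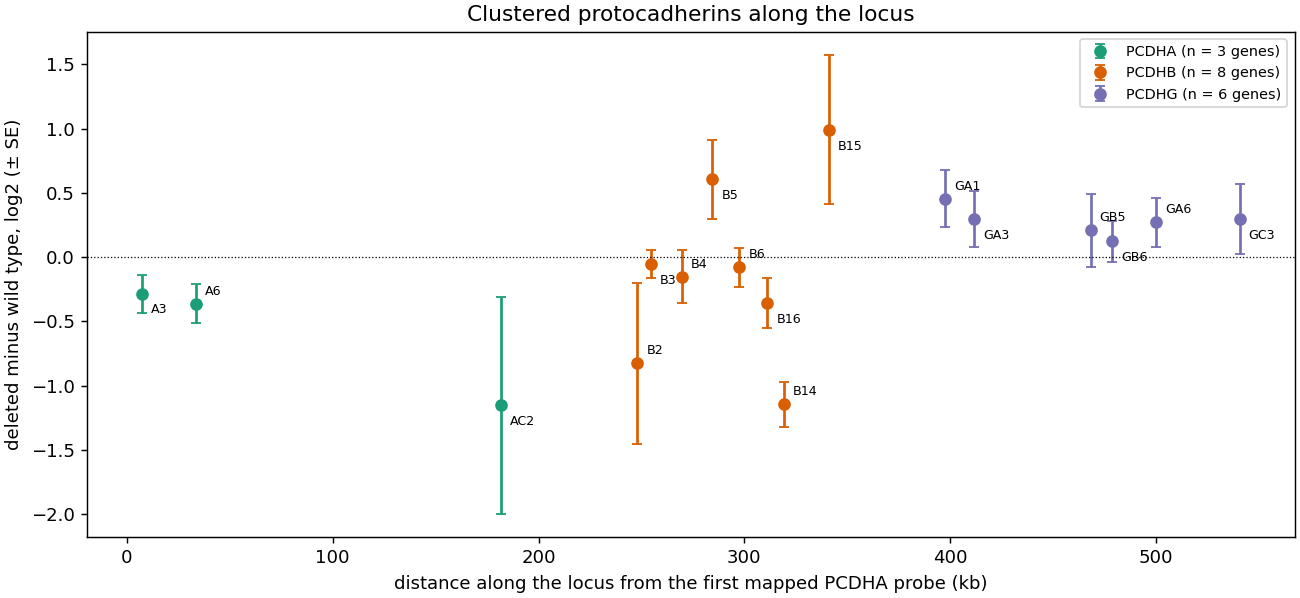
Difference of the 2 group means (deleted minus wild type, log2, bars 1 SE either side) for the 17 kept clustered protocadherins against the distance of their probes from the first mapped PCDHA probe. The 3 PCDHA genes lie below 0, the 8 PCDHB genes on both sides between -1.15 and 0.99, and the 6 PCDHG genes above 0.

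Among the classical cadherins of bone and mesenchyme, none reached an unadjusted limma p of 0.05. CDH11, osteoblast cadherin, was well above background in all tumours, at 12.17, 11.65, 12.42 and 11.90 in the deleted and at 12.21, 12.14 and 12.09 in the wild-type tumours. Its SD over the tumours was 0.25, against a median of 0.29 over all genes, with the lowest level in deleted 2, and the difference was -0.11 (SE 0.19, 95% interval -0.55 to 0.33). A second CDH11 probe read 10.22 in both deleted 2 and deleted 4 and at least 10.58 elsewhere, and a probe described as cadherin 11 was lowest in deleted 4 at 9.27, with deleted 2 next at 9.88. CDH2, N-cadherin, was at 9.87, 9.07, 9.59 and 12.84 in the deleted and at 11.10, 9.54 and 10.64 in the wild-type tumours. Deleted 4 stood above all others, and the second CDH2 probe showed the same with 8.64 in deleted 4 against 6.68 to 7.31 elsewhere. The 2 probes differed in the sign of the group difference, -0.08 and 0.27, and neither was near the threshold. Osteoblast markers (5 of 9 kept, median deviation -1.38 to 0.49 in the deleted and -0.14 to 1.07 in the wild-type tumours) were lowest in deleted 2, the tumour with the lowest CDH2, and their part in these levels was not tested.

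CDH15, M-cadherin of muscle precursor cells, was at 8.67, 8.32, 7.99 and 11.52 in the deleted and at 8.76, 7.36 and 9.04 in the wild-type tumours. Deleted 4 was again far above the rest (difference 0.73, SE 0.91, limma adjusted p = 0.917), and without it the difference was -0.06. Skeletal muscle markers (3 of 5 kept) had a median deviation of -0.48 in deleted 4, the lowest of the 7. TNNT3 was at 6.91 there against 6.45 to 7.20 elsewhere, MYH7 at 7.01 against 7.36 to 7.86 and ACTA1 at 11.44 against 11.70 to 13.42. The part of muscle cells or their precursors in CDH15 was not tested. Adipocyte markers (5 of 5 kept, median deviation -0.61 to 3.12 in the deleted and -0.58 to -0.36 in the wild-type tumours) were high in deleted 4, with ADIPOQ at 13.37 against 6.92 to 7.85 elsewhere, and their part in CDH15 and CDH2 was not tested. CDH13, T-cadherin, which is anchored to the membrane by a lipid and is known from vessels, was at 9.36, 10.15, 11.73 and 9.51 in the deleted and at 11.33, 11.43 and 8.57 in the wild-type tumours. Deleted 3, wild-type 1 and wild-type 2 were high, and the difference was -0.26 (SE 0.87). Endothelial markers (4 of 5 kept) were highest in deleted 3 but lowest in wild-type 1 (median deviation -0.64), and their part in CDH13 was not tested.

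CDH3, P-cadherin of epithelia, was well above background on 2 arrays and CDH6, K-cadherin, on 1, so neither was tested, and CDH8, CDH12 and CDH19 were above it on none. CDH16, kidney cadherin, was at 8.58, 7.91, 7.84 and 7.84 in the deleted and at 8.41, 8.14 and 8.25 in the wild-type tumours (difference -0.22, SE 0.20, limma adjusted p = 0.897). CDH24, a type II cadherin, was at 7.59, 7.38, 7.10 and 7.38 against 7.30, 7.17 and 7.24 (difference 0.13, SE 0.13, limma adjusted p = 0.903). In both genes deleted 1 was the highest tumour and the groups overlapped. The type II members with a kept probe had a median difference of 0.03 over 6 genes and none reached an unadjusted p of 0.05. CDH1, CDH4 and PCDH17 have no probe under their symbols.

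Among the non-clustered protocadherins, PCDH8, a protocadherin of somites and synapses, was at 11.08, 10.71, 10.53 and 10.30 in the deleted and at 10.09, 9.83 and 10.07 in the wild-type tumours. All deleted tumours lay above all wild-type tumours (10.66 ± 0.33, SD, n = 4, against 10.00 ± 0.15, SD, n = 3), a difference of 0.66 (SE 0.19, 95% interval 0.20 to 1.12, limma adjusted p = 0.558, exact permutation p = 0.0571). The difference was 0.69 in the first image-analysis session, 1.002 in the second and 0.79 within the shared slide. As with PCDHB14, the lack of overlap fixed the sign of these in advance. A second PCDH8 probe was well above background on 3 arrays only and did not separate the groups (6.79, 7.68, 6.46 and 6.41 against 6.54, 6.60 and 6.38).

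PCDH19, a protocadherin gene of the X chromosome known from a form of epilepsy, was at 7.15, 6.92, 6.90 and 6.89 in the deleted and at 6.48, 6.59 and 6.88 in the wild-type tumours. The groups did not overlap, but wild-type 3 lay next to deleted 4, and only 1 of the 3 wild-type tumours was well above background (difference 0.32, SE 0.13, limma adjusted p = 0.683). A probe described as protocadherin 19 but without its symbol read 7.32, 6.86, 6.94 and 6.94 against 6.60, 6.58 and 6.91, and there wild-type 3 fell among the deleted tumours. PCDH7 was at 9.38, 8.38, 9.31 and 9.58 in the deleted and at 8.87, 8.71 and 8.77 in the wild-type tumours (difference 0.38, SE 0.28, limma adjusted p = 0.856), so that 3 deleted tumours lay above and deleted 2 below all wild-type ones. A probe described as protocadherin 7 but without its symbol kept this order, with a smaller difference of 0.08 (SE 0.28). PCDH9 and PCDH12 had differences of -0.06 and -0.03.

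FAT4, the FAT protein that pairs with dachsous cadherins across cells, was at 8.58, 8.65, 9.00 and 9.41 in the deleted and at 9.82, 9.53 and 9.79 in the wild-type tumours. Every deleted tumour lay under every wild-type tumour, with deleted 4 closest to them (8.91 ± 0.38, SD, n = 4, against 9.71 ± 0.16, SD, n = 3). The difference was -0.81 (SE 0.22, 95% interval -1.32 to -0.29, limma adjusted p = 0.511, exact permutation p = 0.0571), a ratio of 0.57. A second FAT4 probe, close to the first on chromosome 19, gave -0.84 with 8.53, 8.52, 8.74 and 9.21 against 9.73, 9.43 and 9.60. Within the first session the difference was -0.52, within the second -1.23, and within the shared slide -0.71. Here too the lack of overlap fixed the sign in advance. FAT1 and FAT2 showed no such order. FAT1 was at 7.87, 7.53, 7.94 and 8.35 against 7.91, 7.57 and 8.22 (difference 0.03, SE 0.23), with 95% limits of -0.52 and 0.57. Probes described as a protein fat homolog but without the symbol, also on chromosome 16, differed by -0.13 (SE 0.23) and -0.04 (SE 0.30). FAT2 was at 11.87, 11.16, 12.82 and 12.97 against 12.48, 11.18 and 10.98 (difference 0.66, SE 0.55, limma adjusted p = 0.881), with deleted 3 and 4 highest.

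**Figure D4:**
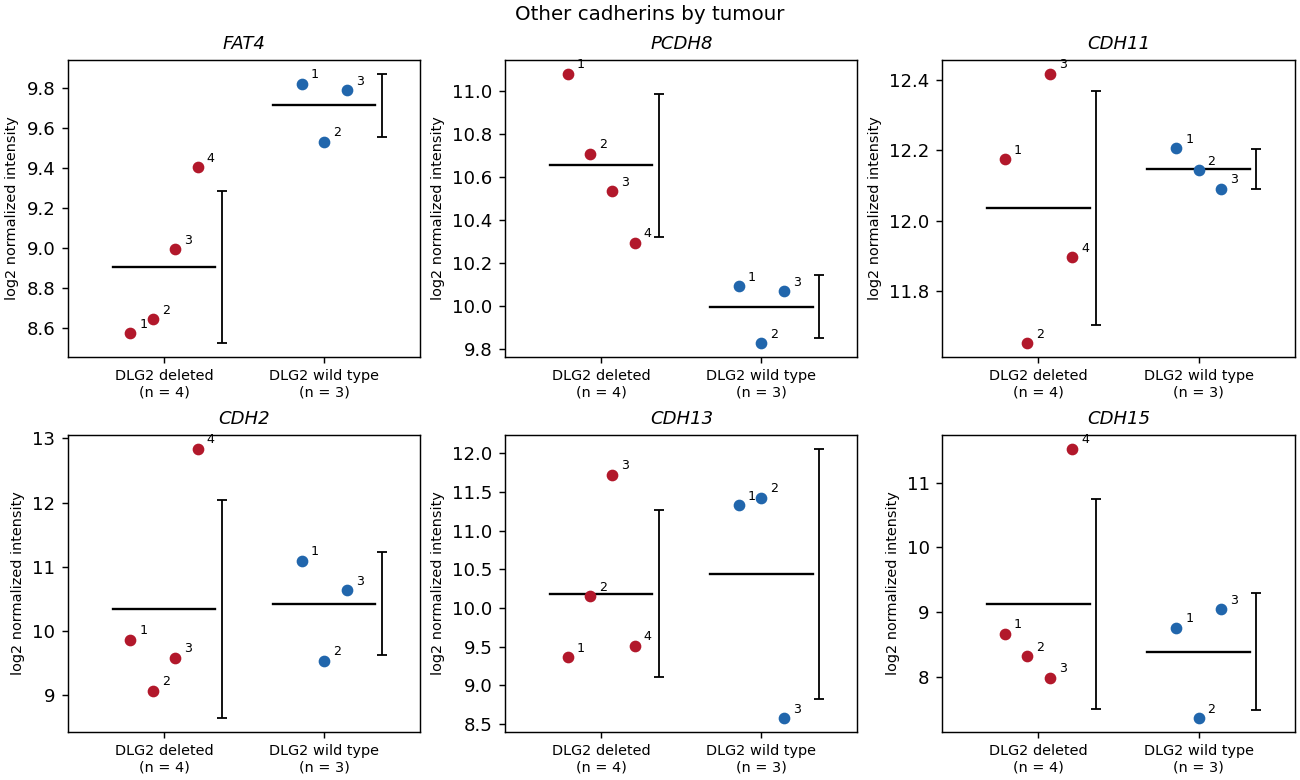
Log2 normalized intensity of 6 members outside the clustered families in the 4 deleted (red) and 3 wild-type (blue) tumours, where numbers name the tumour, lines the group mean and bars 1 SD either side of it. FAT4 and PCDH8 have groups that do not overlap, CDH2 and CDH15 are highest in deleted 4, and CDH11 stays between 11.65 and 12.42.

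Genes that work with cadherins gave no call. Of 13 catenins and plakophilins with a kept probe, the links from cadherins to the cell skeleton, none reached an unadjusted limma p of 0.05 and the median difference was 0.10. Beta-catenin, CTNNB1, differed by -0.21 (SE 0.42), alpha-catenin, CTNNA1, by 0.38 (SE 0.44) and p120-catenin, CTNND1, by -0.06 (SE 0.17). The smallest p of the list were those of PKP2 (0.26, limma adjusted p = 0.697) and CTNND2 (-0.55, limma adjusted p = 0.875). Among 6 other genes of the cadherin superfamily 1 reached p below 0.05, CELSR2, a flamingo cadherin of planar polarity (0.46, limma adjusted p = 0.674), and CLSTN3 followed with -0.22.

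Of 11 genes that act on the clustered protocadherin promoters, such as CTCF and the cohesin subunits, 1 reached p below 0.05. PDS5A, a cohesin regulator, was at 10.12, 9.57, 9.40 and 9.99 in the deleted and at 8.93, 9.13 and 9.08 in the wild-type tumours (0.72, SE 0.19, limma adjusted p = 0.510), and SMC3, a cohesin ring subunit, differed by -0.74 (SE 0.32, limma adjusted p = 0.694). CTCF differed by 0.02 (SE 0.30). Of 13 partners of FAT proteins and the Hippo pathway, 11 had a higher mean in the deleted tumours with a median of 0.17. Over all genes 5864 of 11085 did, with a median of 0.01, and no test of the list was made. Among the 13 partners 1 reached p below 0.05, the Hippo kinase LATS2 (0.55, SE 0.21, limma adjusted p = 0.653), followed by TEAD1 (0.29). Of 5 transcription factors of cadherin switching, ZEB1 reached p below 0.05 (0.32, limma adjusted p = 0.683) and TWIST2 followed with 0.34. Of 6 proteases that cut cadherins, the protease subunit PSEN2 did so (-0.28, limma adjusted p = 0.659). These shares of 0 of 13, 1 of 6, 1 of 11, 1 of 13, 1 of 5 and 1 of 6 stand beside the 7.6% of all genes.

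**Figure D5:**
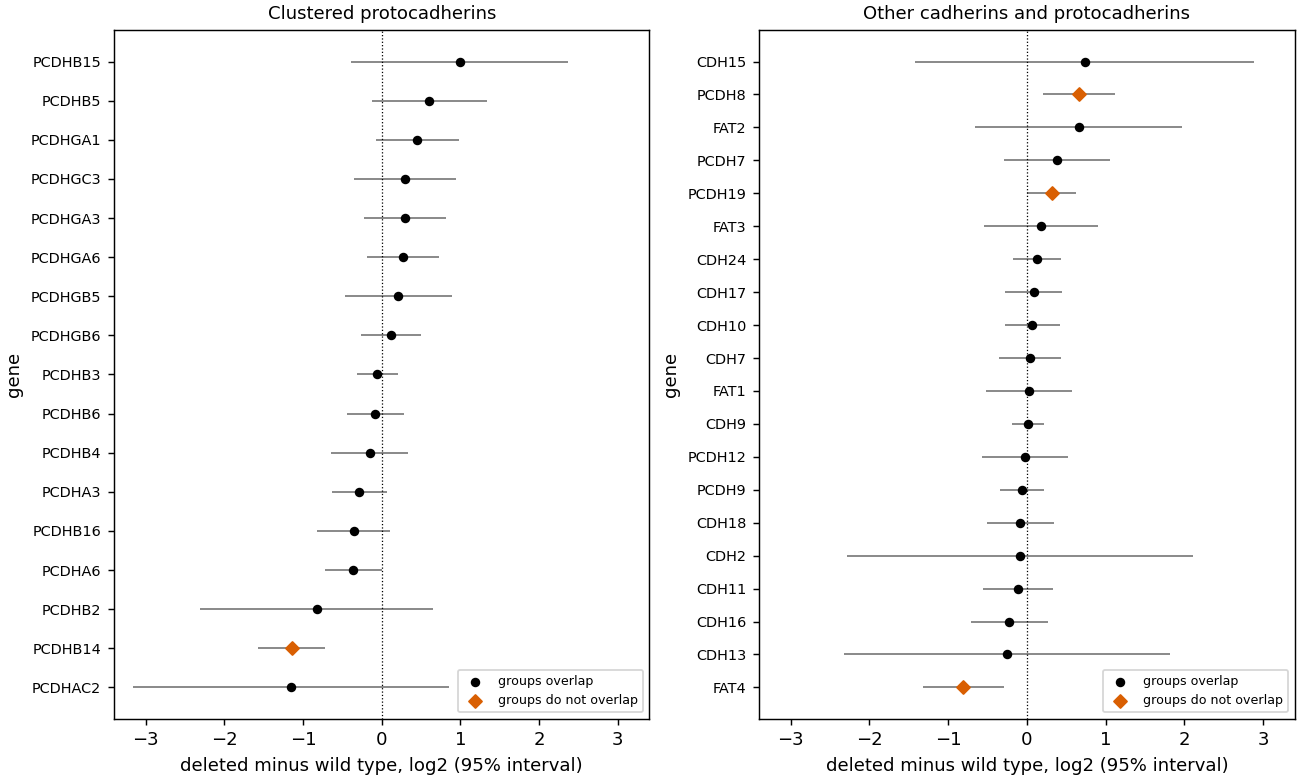
Difference of the group means (deleted minus wild type, log2) with its 95% interval for the 17 clustered and 20 other member genes with a kept probe, sorted by size. Orange diamonds are the 4 genes whose groups do not overlap, PCDHB14, FAT4, PCDH8 and PCDH19, and the widest intervals belong to PCDHAC2, CDH2, CDH13 and CDH15.

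The tumours also differed in how often they carried a member's highest value. Deleted 1 to 4 were highest in 9, 5, 4 and 10 of the 37 genes, and wild-type 1 to 3 in 7, 0 and 2. For deleted 1 to 4 these shares were 24.3%, 13.5%, 10.8% and 27%, against 16.5%, 17.9%, 14.5% and 18.7% over all 11085 genes. For wild-type 1 to 3 they were 18.9%, 0% and 5.41%, against 10%, 8.25% and 14.1%. Between tumours, the median size of the difference over the 17 clustered genes ran from 0.109 for wild-type 1 and 2 to 0.742 for deleted 2 and wild-type 1, where all genes gave 0.127 and 0.260. Pairs within the deleted group lay between 0.310 and 0.543.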

How the data were processed

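The authors measured total RNA of 7 canine primary osteosarcomas on Agilent canine arrays with 1 colour and 1 array per tumour. The deposited files hold spot intensity and local background intensity on a linear scale and quality flags from Agilent Feature Extraction 10.7.3.1, with probe positions on canFam2. Of 45220 spots per array, 43803 were not controls. No spot was saturated and 144 outlier values were left out. Background was corrected with normexp (offset 50), arrays were quantile-normalized, and spots of a probe were averaged, giving 43603 probes in R 4.3.3 with limma 3.58.1. The authors describe multi-array normalization with batch correction and a t-test with thresholds of 0.05 and 0.1, and their normalized table was not used here. Batches are not named there, so none was corrected in the main test.

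Of the probes, 32309 were well above background on at least 3 arrays and were fitted together with limma, deleted against wild type, and p-values were adjusted by Benjamini-Hochberg over all of them. Gene names are those of the files, and 1848 probes without a symbol were named through their RefSeq accession. Probe alignments used blastn 2.17.0. The number of arrays limits the precision. The scripts were tested on simulated data. Alternatives covered scaling, the filter, the test, slide, image-analysis session, sex label, age, probe summary and leaving out each tumour.

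The members and lists were chosen with earlier results of these data known. Members named with full values were the 8 clustered and 8 other genes with the smallest p, the 6 with the largest SD, and 12 well-known cadherins. PCDHA1, PCDHA13, the second probes, PCDHGC3, PCDHGB6, PCDHB3, PCDHB4, PCDHB6, PCDH9, PCDH12 and CTCF were named after their values were seen. From the partner lists the 2 genes with the smallest p were named, except 1 gene that is not reported here.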

Additional observations from a re-analysis of the deposited data

Results flagged for a closer look

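In 3 of the 37 member genes, 1 deleted tumour stood apart from the other 3 by a gap that is large for 4 values, and chance alone gives about 1 in 20 such groups (1.85 of 37). Over all 11085 genes, 5.95% had such a gap, against 8.11% of the members. In CDH16 deleted 1 was at 8.58 and the next deleted tumour at 7.91 (gap over range 0.898). In PCDH19 deleted 1 was at 7.15 and the next at 6.92 (gap over range 0.878). In PCDHB6 deleted 1 was at 6.96 and the next at 6.50 (gap over range 0.859), and deleted 1 was the sole deleted tumour well above background there, so the gap was measured against values near the lower end of the scale. The highest tumour was deleted 1 in each of the 3 genes, and it is the sole deleted tumour of the second image-analysis session. In CDH16 the 3 arrays of that session, at 8.25 to 8.58, lay above the 4 of the first, at 7.84 to 8.14, and with the session as a term the group difference of -0.22 was -0.027. With that term the difference of PCDH19 was 0.39 against 0.32 without it, and that of PCDHB6 0.0096 against -0.079. The genes were picked because a deleted tumour stood apart, and the cause of these gaps was not tested.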

How the results depend on the processing

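No paired analysis was possible because the labels give each tumour a number of its own. Members called stayed at 0 under all 21 alternatives. Clustered protocadherins at unadjusted p below 0.05 numbered 1 in the main test, 2 with the scanner software's processed signal scaled to the 75th percentile, without the filter, with limma's trend and robust options and with the mean of a gene's probes (7.09%, 6.73%, 6.8% and 7.38% of all probes passed, against 7.29% in the main test), 3 with the slide as a block (4.25%), and 7 with array weights (2 higher and 5 lower, 13.5%). Leaving out 1 tumour gave 1 to 5, with 5 without wild-type 3 (1 higher and 4 lower, 7.94% of all probes). It gave 2 each without deleted 2, deleted 3 and wild-type 2 (7.9%, 6.94% and 4.83%). Other members numbered 3 (7.29% of all probes), but 1 with normexp scaled to the 75th percentile (3.37%) and with the slide as a block (4.25%). They numbered 2 with all 7 arrays above background (7.19%), the methods' t-test (6.95%) and age (6.08%). The count was also 2 with wild-type 1 and 2 as 1 tumour (4.36%) and the mean of probes (7.38%). Without 1 tumour it was 2 to 3 (4.41% to 9.27%). The clustered median of -0.05 became -0.29 with the processed signal at the 75th percentile, -0.26 with its quantile normalization, 0.74 with normexp at the 75th percentile, 0.21 over probes well above background on all 7 arrays and 0.18 with age as a covariate, and ranged from -0.09 to 0.03 without 1 tumour. The median of the other members, 0.03, became 0.37 with normexp at the 75th percentile and ranged from -0.026 to 0.13 without 1 tumour. Normexp at the 75th percentile moved the median of all probes to 0.32, so relative to it the clustered median was higher and the other members' about level. The cause of these shifts was not tested.

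Among 22 named genes, 433 of 458 values kept their sign and 25 reversed, in 8 genes, none of which was called. FAT1 (0.03) became -0.048 and -0.014 with the processed signal at the 75th percentile and by quantiles, -0.0034 with the sex label, -0.26 with age, and -0.055 with wild-type 1 and 2 as 1 tumour. CDH2 (-0.08) became 0.035 with the session, 0.017 with the sex label and 0.090 with the mean of its probes. With age PCDHAC2 became 0.26 and CDH13 0.33, and CDH13 was 0.21 with wild-type 1 and 2 as 1 tumour. With normexp at the 75th percentile PCDHA3 became 0.39 and PCDHA6 0.32. Leaving out 1 tumour reversed CDH13 (-1.19 to 0.24), CDH2 (-0.92 to 0.34), CDH11 (-0.24 to 0.016), CDH15 (-0.064 to 1.11) and FAT1 (-0.14 to 0.19). PCDHB14 stayed below 0 throughout, from -2.53 to -0.75, as did FAT4, from -0.98 to -0.70. With normexp at the 75th percentile, however, PCDHB14 (-0.75) did not reach p below 0.05 and PCDHGA6 (1.06) did, and with the slide as a block FAT4 (-0.71) did not. Without 1 tumour PCDHB2 ranged from -1.39 to -0.49 (without wild-type 3 and 1), PCDHB15 from 0.63 to 1.58 (wild-type 2 and 3), PCDHB16 from -0.54 to -0.15 (wild-type 2 and 3) and FAT2 from 0.38 to 1.13 (wild-type 3 and 1). A test of whether the DLG2 difference depended on the sex label made calls in 0 of 32231 probes by limma (2566 at unadjusted p below 0.05, 8 of them among the 37 members), with wild-type 3 as the sole wild-type tumour labelled MC. Signal near background limits PCDHA3, PCDHA6, PCDHB3, PCDHB6, PCDHGA6, PCDHGB6, CDH18, PCDH9 and PCDH19, which have a compressed scale.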

Other observations

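Some probes are described as cadherins in the files but carry no symbol that the member rule accepts. The probe described as protocadherin 17, a protocadherin known from vessels and brain, was at 8.84, 8.28, 10.31 and 8.19 in deleted 1 to 4 and at 8.46, 8.54 and 8.99 in wild-type 1 to 3. Deleted 3 was highest. Endothelial markers (4 of 5 kept) had median deviations of -0.16 to 1.34 in the deleted and -0.64 to -0.01 in the wild-type tumours. They were highest in deleted 3 and lowest in wild-type 1, and their part in this level was not tested. The probe described as protocadherin 18 was at 8.39, 9.01, 8.64 and 8.70 against 8.50, 8.46 and 9.18, with wild-type 3 highest. The probe described as R-cadherin, CDH4, stayed between 6.80 and 6.97 in all 7 tumours. Of 3 probes described as E-cadherin or similar to it, 2 were not well above background on any array and 1 was above it on 5, between 6.51 and 6.66. The probe described as protocadherin alpha 4 was well above background only in wild-type 1 and 2, at 6.82 and 6.85, and between 6.39 and 6.53 in the other 5 tumours. A probe described as cadherin 13 was at 7.36, 7.45, 8.35 and 7.04 against 8.08, 8.33 and 6.80, with the same 3 tumours high as in the CDH13 probe.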
